A study of Homo sapiens with 4 samples.

Results

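The genes described here are 10 dehydrogenases that handle alcohols and retinoids: the 7 alcohol dehydrogenases ADH1A, ADH1B, ADH1C, ADH4, ADH5, ADH6 and ADH7 and the 3 retinaldehyde dehydrogenases ALDH1A1, ALDH1A2 and ALDH1A3. They were taken by gene name from a count table of 61806 genes, and all 10 names were found once. They were chosen with their counts in this comparison known, so their own values are a description and carry no test. RNA was sequenced from U118-MG, an established human glioma cell line described as wild type. The SPNS2 group (2 libraries) had been infected with a lentivirus carrying SPNS2, which encodes an exporter of the signalling lipid sphingosine 1-phosphate. The NC group (2 libraries) had been infected with the negative control vector. Both vectors were of the pCDH-CMV-MCS-EF1-puro type, and both groups grew in DMEM with 10% fetal bovine serum. Whether a group is 1 clone or a pool, and whether its libraries came from separate cultures, is not given in the sources used here, so p-values measure only the spread between these libraries, which may be technical.

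Alcohol dehydrogenases are zinc enzymes of the cytosol that use NAD to turn alcohols, including ethanol and retinol (vitamin A), into aldehydes. The retinaldehyde dehydrogenases then oxidise retinaldehyde to retinoic acid, which binds nuclear receptors and sets the expression of their target genes. The class I enzymes are best known from liver, ADH7 from the lining of stomach and oesophagus, and ADH5 from almost every tissue, while in the nervous system retinoic acid is known for patterning the embryo and for driving differentiation.

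Total counts were 31353373 and 34125159 in the SPNS2 libraries and 31513400 and 32992150 in the NC libraries. SPNS2 itself, the check of the labels, had 7381 and 8224 counts in the SPNS2 libraries and 42 and 47 in the NC libraries, with vector and cellular transcripts counted together. Of 17853 genes tested, 2161 were called higher (12.1%) and 2010 lower (11.3%) in SPNS2 by the edgeR quasi-likelihood test at an adjusted p under 0.05, so 23.4% were called, and the median log2 fold change was -0.01. Of 14 markers of astrocytes and glioma, 8 were under 1 CPM in every library, among them GFAP, and S100B had no counts. The summed level of that list was 7316 and 6764 CPM in the SPNS2 libraries and 4502 and 5185 CPM in the NC libraries, most of it VIM, an intermediate filament of many cell types. The list went both ways: of 7 tested, 2 were called higher and 2 lower in SPNS2. SLC1A3 was 18.5-fold and VIM 1.49-fold higher, and CHI3L1 was 2.77-fold and NES 1.78-fold lower.

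ADH1B, a class I enzyme that oxidises ethanol and retinol, was nearly absent from the SPNS2 cells. The SPNS2 libraries had 0 and 5 counts, against 677 and 674 counts in the NC libraries. Scaled to library size, these were 0 and 0.15 CPM (counts scaled by TMM to a common library size) in SPNS2 and 21.1 and 20.0 CPM in NC. The groups lay far apart, and the NC libraries were close to each other. The mean was 0.0749 ± 0.106 CPM in SPNS2 and 20.6 ± 0.77 CPM in NC (SD, n = 2 each), and the NC level was 264 times that of SPNS2, with an exact 95% counting interval of 113 to 814. The log2 fold change of SPNS2 over NC was -7.98 (SE 0.68). It rested on the 5 counts of SPNS2 replicate 2: it was -12.37 without that library and -7.05 without SPNS2 replicate 1. ADH1B (ENSG00000196616) lies on the minus strand of chromosome 4, from 99304964 to 99352760 on hg38. In bulk RNA, fewer cells that use a gene and less RNA of it per cell cannot be told apart.

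The other class I genes were hardly read in either group. ADH1C, an enzyme with substrates like those of ADH1B, had 0 and 4 counts in the SPNS2 libraries and 6 and 5 in the NC libraries, a ratio of NC to SPNS2 of 2.68 with a counting interval of 0.796 to 11.6. ADH1A, the third of this class, had no counts in the SPNS2 libraries and 0 and 2 counts in the NC libraries. The class I genes are near-identical copies: the principal transcripts of ADH1B and ADH1C matched at 94.6% of 1454 aligned bases and those of ADH1A and ADH1B at 93.9%. ADH1B and ADH1C also share 103 exonic bases of the same strand. Of all stretches of 75 bases, 4.03% in the ADH1B transcript, 4.28% in ADH1A and 10.8% in ADH1C were found in another gene's transcript as well. How such reads were counted is not given in the sources used here, so the sum of the 3 genes is given too. It was 9 counts over the SPNS2 libraries and 1364 over the NC libraries, 148 times as high in NC after scaling (counting interval 77.7 to 324).

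ADH7, the class IV enzyme and an efficient oxidiser of retinol, was not read at all in the SPNS2 cells. It had 0 and 0 counts in the SPNS2 libraries, against 392 and 377 counts (12.2 and 11.2 CPM) in the NC libraries. The groups did not overlap, and the NC mean was 11.7 ± 0.724 CPM (SD, n = 2). With 3 counts over both SPNS2 libraries taken as the floor, ADH7 was at least 250-fold lower in SPNS2. No stretch of 75 bases of its transcript was found in another gene. ADH7 (ENSG00000196344) lies at the other end of the gene cluster, from 99412261 to 99435737 on the minus strand of chromosome 4.

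ADH5, the class III enzyme, clears formaldehyde bound to glutathione and reduces S-nitrosoglutathione. It was abundant in both groups, with 5264 and 5566 counts in the SPNS2 libraries and 6911 and 7075 counts in the NC libraries. These were 171 and 167 CPM in SPNS2 and 216 and 210 CPM in NC, and the groups did not overlap. The mean was 169 ± 2.96 CPM in SPNS2 and 213 ± 3.77 CPM in NC (SD, n = 2 each), 1.26-fold lower in SPNS2 with a log2 fold change of -0.33 (SE 0.06). The median log2 fold change of the 436 tested genes on the same chromosome arm, 4q, was -0.32, and with that median taken off ADH5 stood at -0.01. The copy ADH5P4, which holds 100 of the 113 shared 75-base stretches of the ADH5 transcript, had 63 and 64 counts in SPNS2 and 86 and 89 in NC. ADH5 (ENSG00000197894) lies from 99070978 to 99088801 on the minus strand of chromosome 4.

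ADH4 and ADH6, known mainly from liver, complete the cluster. ADH4, the class II enzyme, had no counts in any library. ADH6, the class V gene, had no counts in the SPNS2 libraries and 0 and 3 counts in the NC libraries. With 3 counts over the group as the floor, levels up to 0.0468 CPM in SPNS2 and 0.0457 CPM in NC could not be told from 0, so ADH1A, ADH4 and ADH6 were at or under the limit of detection in both groups and no fold is given. ADH1A and ADH6 share 264 and 75 exonic bases with the antisense gene ENSG00000246090, and the strand setting of the counting is not given in the sources used here.

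**Figure D1:**
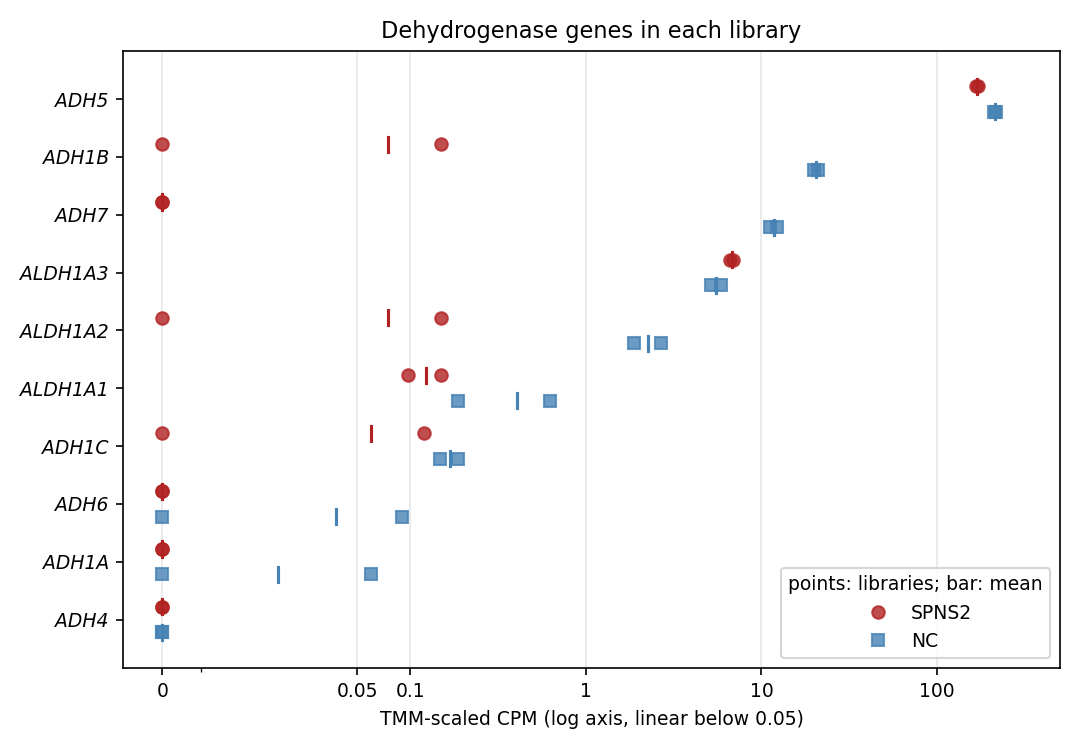
TMM-scaled CPM of the 10 genes in each library, ordered by the mean in NC, on a log axis that is linear below 0.05; points are libraries (circles SPNS2, squares NC) and bars are group means. ADH1B, ADH7 and ALDH1A2 are at 0 to 0.15 CPM in SPNS2, against 20.6, 11.7 and 2.27 CPM on average in NC, while ADH5 and ALDH1A3 lie close together in both groups.

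Among the retinaldehyde dehydrogenases, which make retinoic acid, the genes differed from each other. ALDH1A2, the main enzyme of this kind in early embryos, had 0 and 5 counts in the SPNS2 libraries and 60 and 90 counts in the NC libraries. Its mean was 0.0749 ± 0.106 CPM in SPNS2 and 2.27 ± 0.568 CPM in NC (SD, n = 2 each), and the NC level was 29.3 times that of SPNS2 (counting interval 12.3 to 91.5). The log2 fold change was -4.81 (SE 0.98), and it was -9.19 without SPNS2 replicate 2 and -3.87 without SPNS2 replicate 1. ALDH1A2 (ENSG00000128918) spans 57953424 to 58497866 on the minus strand of chromosome 15. It shares 354 exonic bases with AQP9 on the other strand, which had at most 14 counts in a library.

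ALDH1A3, an enzyme known from eye and nasal development and from gliomas, was at a similar level in both groups. It had 213 and 222 counts in the SPNS2 libraries and 189 and 173 counts in the NC libraries. The means were 6.79 ± 0.188 CPM in SPNS2 and 5.52 ± 0.534 CPM in NC (SD, n = 2 each), a log2 fold change of 0.30 (SE 0.17). The SPNS2 libraries were both above the NC libraries by a margin of similar size to the NC spread. ALDH1A3 (ENSG00000184254) lies from 100877714 to 100916626 on the plus strand of chromosome 15, and 1585 of its exonic bases are shared with ALDH1A3-AS1 on the other strand, which had 0 and 3 counts in each group. ALDH1A1, the cytosolic enzyme often used as a stem cell marker, had 3 and 5 counts in the SPNS2 libraries and 6 and 21 counts in the NC libraries. The NC libraries differed more from each other than the lower of them did from SPNS2, and the ratio of NC to SPNS2 was 3.29 (counting interval 1.46 to 8.39). ALDH1A1 (ENSG00000165092) lies from 72900662 to 73080442 on the minus strand of chromosome 9.

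The filter on low counts kept 5 of the 10 genes in the fit across all genes. ADH1B, ADH5, ADH7 and ALDH1A2 were among the genes called lower, 4 of 5 beside 11.3% of all tested genes called lower and 23.4% called in all, and ALDH1A3 was not called. The genes were chosen from this contrast, so nothing is read from that share. The groups did not overlap at any of the 5, with 4 lower and 1 higher in SPNS2, as was so for 66% of all tested genes (33.6% lower and 32.4% higher). The call of ADH5 was lost with any 1 library left out, and that of ALDH1A2 was lost without NC replicate 1 and without NC replicate 2. In the order of log2 fold changes from the lowest, ADH7 stood at place 2, ADH1B at 49, ALDH1A2 at 198, ADH5 at 5195 and ALDH1A3 at 12903 of 17853.

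Levels were compared between genes per kilobase of the principal transcript. In SPNS2 the order was ADH5 at 64.6 ± 1.13 CPM per kb, ALDH1A3 at 1.73 ± 0.0479, and then ALDH1A1 at 0.0587, ADH1C at 0.0345, ADH1B at 0.0184 and ALDH1A2 at 0.0183 CPM per kb, where 4 to 8 counts over the group do not separate neighbours. In NC it was ADH5 at 81.4 ± 1.44 CPM per kb, ADH1B at 5.05 ± 0.189, ADH7 at 4.66 ± 0.288, ALDH1A3 at 1.41 ± 0.136, ALDH1A2 at 0.555 ± 0.139 ALDH1A1 at 0.193 ± 0.147 and ADH1C at 0.0965 ± 0.0157 CPM per kb (SD, n = 2), with ADH6 and ADH1A below. ADH1B and ADH7 did not differ beyond the choice of length in NC: per kilobase of all annotated exons they were at 1.91 and 3.77 CPM, in the opposite order. ADH5 made up 100% and 99.8% of the summed alcohol dehydrogenase level per kb in the SPNS2 libraries and 89.0% and 89.4% in the NC libraries. ALDH1A3 made up 97.4% and 94.0% of the summed retinaldehyde dehydrogenase level in the SPNS2 libraries and 73.4% and 58.0% in the NC libraries. In both families the gene with the highest level was thus also the one that differed least, as a log2 fold change, among the tested members.

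The promoters of the genes that differed most are shown beside those of ADH5, their abundant neighbour, and ADH1C, the near-copy of ADH1B that was hardly read. Each runs 5′ to 3′ on the minus strand, from 250 bases before to 50 bases after the RefSeq gene start on GRCh38.p14, and capitals mark matches to the motifs named below. The windows are chr4:99321352-99321651 for ADH1B, chr4:99352697-99352996 for ADH1C, chr4:99435293-99435592 for ADH7, chr4:99088739-99089038 for ADH5 and chr15:58065662-58065961 for ALDH1A2.
ADH1B: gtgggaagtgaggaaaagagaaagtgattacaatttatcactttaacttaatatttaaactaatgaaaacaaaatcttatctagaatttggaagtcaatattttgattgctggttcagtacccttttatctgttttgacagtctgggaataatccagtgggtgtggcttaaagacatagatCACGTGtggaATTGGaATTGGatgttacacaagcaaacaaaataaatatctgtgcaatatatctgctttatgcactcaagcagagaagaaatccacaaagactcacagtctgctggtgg
ADH1C: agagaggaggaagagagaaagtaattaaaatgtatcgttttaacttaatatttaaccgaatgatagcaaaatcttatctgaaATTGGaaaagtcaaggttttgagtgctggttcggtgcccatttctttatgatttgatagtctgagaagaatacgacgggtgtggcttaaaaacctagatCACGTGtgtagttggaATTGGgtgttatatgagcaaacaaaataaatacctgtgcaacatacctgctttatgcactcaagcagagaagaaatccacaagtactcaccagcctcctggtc
ADH7: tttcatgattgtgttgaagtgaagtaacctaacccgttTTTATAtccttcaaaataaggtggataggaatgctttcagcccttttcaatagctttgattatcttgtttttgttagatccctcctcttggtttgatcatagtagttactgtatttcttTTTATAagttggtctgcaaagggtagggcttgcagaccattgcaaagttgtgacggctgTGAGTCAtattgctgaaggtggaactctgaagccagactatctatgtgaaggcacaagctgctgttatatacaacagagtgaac
ADH5: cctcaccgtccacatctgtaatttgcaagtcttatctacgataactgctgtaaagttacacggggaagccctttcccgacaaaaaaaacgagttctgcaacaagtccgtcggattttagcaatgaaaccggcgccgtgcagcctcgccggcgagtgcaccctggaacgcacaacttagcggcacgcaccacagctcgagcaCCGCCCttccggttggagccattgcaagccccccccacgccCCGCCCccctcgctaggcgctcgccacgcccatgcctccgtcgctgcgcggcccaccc
ALDH1A2: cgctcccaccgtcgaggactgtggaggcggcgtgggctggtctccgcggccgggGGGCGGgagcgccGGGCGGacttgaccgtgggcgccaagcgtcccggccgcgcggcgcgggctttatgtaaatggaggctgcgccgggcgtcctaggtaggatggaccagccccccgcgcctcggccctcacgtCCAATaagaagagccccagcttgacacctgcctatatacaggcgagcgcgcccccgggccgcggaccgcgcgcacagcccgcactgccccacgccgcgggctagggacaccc

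The letters searched on both strands were CACGTG, known as the E-box, the CCAAT box of that spelling, the TATA box as TATAAA, the GC box as GGGCGG, the AP-1 element as TGANTCA and a nuclear receptor half-site as AGGTCA, a choice made after the sequences had been seen. All 10 genes had an entry in the RefSeq table, with 2 starts for ADH7 and for ALDH1A2, of which the outermost was used, and no motif overlapped another in the windows shown. The ADH1B and ADH1C windows matched at 84.1% of 295 aligned bases. Both held an E-box that begins 69 bases before the start, which 7.25% of 35097 promoters hold, and a reversed CCAAT that begins 53 bases before it, a motif that 34.6% hold. ADH1B had a further reversed CCAAT 59 bases before the start and ADH1C one 168 bases before it. Over both NC libraries, ADH1B had 1351 counts and ADH1C 11, as totals of each gene. In GENCODE 29 the 5′ end of ADH1B is at 99352760, inside the ADH1C window. That of ALDH1A2 is at 58497866, outside the ALDH1A2 window. The counts of a gene are therefore not tied to the start shown for it. The ADH7 window had reversed TATAAA letters 212 and 93 bases before the start, a motif of 11.5% of promoters, and TGANTCA 34 bases before it, which 7.71% hold. Apart from ADH5, the cluster's windows were poor in CpG, with 1 to 6 CpG and 35.0% to 39.0% G and C, against a median of 14 CpG and 58.7% over all promoters. ADH5 had 29 CpG and 2 GC boxes, a motif that 44.9% of promoters hold. ALDH1A2 had 41 CpG and 2 GC boxes, and ALDH1A3 46 CpG and 6 GC boxes, so ALDH1A2 and ALDH1A3 shared a CpG-rich window and differed in their counts. AGGTCA was in none of the 10 windows and in 13.8% of all promoters. These are matches of letters in short windows, and none of the factors that read them was measured at these sites.

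The tested genes around the cluster were read in the SPNS2 cells, unlike ADH7, with 1 exception. The 7 alcohol dehydrogenase genes span 364.76 kb, and 39 other annotated genes lie within 1 Mb of its ends, of which 14 were tested. The edgeR test called 3 of them lower (21.4%), beside 11.3% called lower among all tested genes and 123 of 436 on 4q. Their median log2 fold change was -0.45, also with MTTP at its bound, and 12 of 14 were below 0. That of 4q was -0.32. MTTP, which loads lipid onto lipoproteins in liver and gut, lies 128 kb beyond ADH7. It had 0 and 0 counts in the SPNS2 libraries and 88 and 43 in the NC libraries, at least 42.6-fold lower (edgeR adjusted p = 0.0202). TRMT10A, a tRNA methyltransferase 111 kb beyond ADH7 and the nearest tested gene on that side, fell to 4.81 ± 0.189 CPM in SPNS2, against 7.89 ± 0.397 CPM in NC (adjusted p = 0.0452, edgeR). DDIT4L, an inhibitor of mTOR signalling at 750.1 kb, fell to 1.34 ± 0.144 CPM in SPNS2, against 2.94 ± 0.0792 CPM in NC (adjusted p = 0.0424, edgeR). MTTP lost its call when NC replicate 1 was left out (adjusted p = 0.0865), and those of TRMT10A and DDIT4L were lost with any 1 library left out (adjusted p from 0.104 to 0.163). The annotated ends of TRMT10A and MTTP overlap. On the ADH5 side, the nearest tested gene was the noncoding ENSG00000272777 at 2.85 kb, with 7 and 15 counts in SPNS2 and 31 and 34 in NC (adjusted p = 0.105). METAP1, a methionine aminopeptidase 8.17 kb from ADH5, averaged 55.8 ± 1.85 CPM in SPNS2 and 70.5 ± 8.32 CPM in NC (adjusted p = 0.0916). ENSG00000246090, which runs antisense through the cluster, averaged 1.78 ± 0.362 CPM in SPNS2 and 3.80 ± 1.29 CPM in NC (adjusted p = 0.0972).

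**Figure D2:**
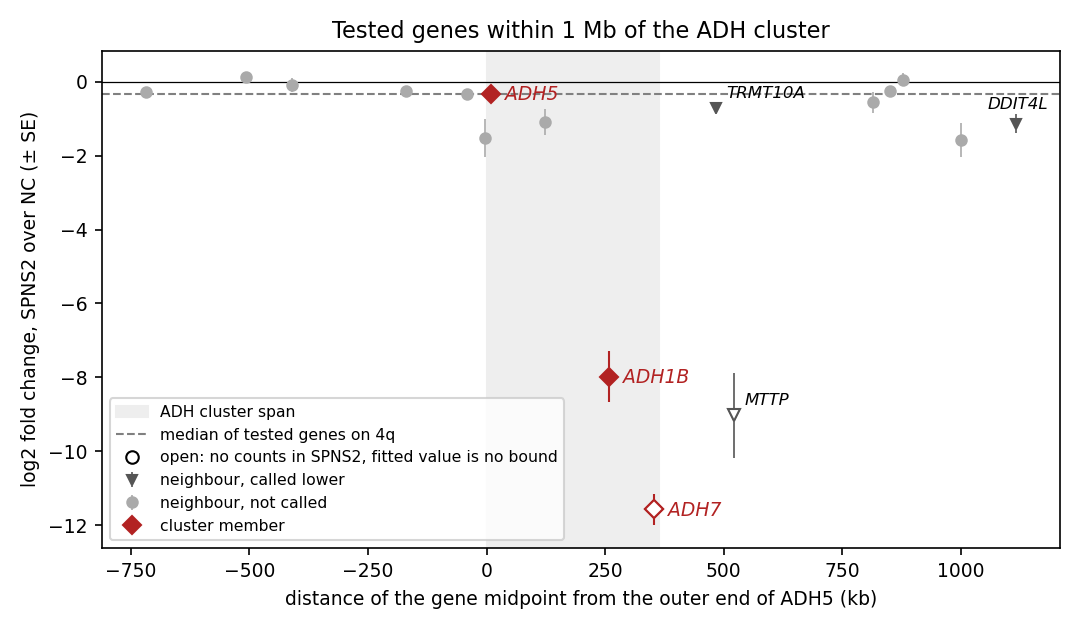
Log2 fold change of SPNS2 over NC, with its SE, for the tested genes within 1 Mb of the alcohol dehydrogenase cluster, against the distance of the gene's midpoint from the outer end of ADH5 in kb; diamonds are cluster members, triangles neighbours called lower, circles neighbours not called, the band the cluster and the dashed line the 4q median of -0.32. ADH5 and most neighbours lie near the dashed line, ADH1B is at -7.98, and ADH7 and MTTP (open symbols) had no counts in SPNS2, so that their fitted values are no bounds.

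The other genes of the pathway were read from 9 lists of 117 genes in all, of which 80 were tested. The edgeR test called 12 of them higher and 17 lower in SPNS2 (36.2%, beside 23.4% of all tested genes). Their median log2 fold change was -0.18, beside -0.01 over all tested genes. The lists were chosen with earlier results of these data known, so nothing is read from this share or from those of single lists. Retinol and retinaldehyde are also interconverted by short-chain dehydrogenases and aldo-keto reductases. The list of these enzymes also held BCO1 and BCO2, which are of neither class. Of the 14 tested genes in that list, 3 were called (21.4%), all of them lower, and the median was -0.14. DHRS9, a retinol dehydrogenase of epithelia, had 4 and 4 counts in the SPNS2 libraries and 231 and 356 in the NC libraries, and fell by 6.11 on the log2 scale (SE 0.36, edgeR adjusted p = 0.00252). AKR1C3, a reductase of steroids, prostaglandins and retinaldehyde, fell to 12.7 ± 1.15 CPM in SPNS2, against 30.6 ± 0.523 CPM in NC (adjusted p = 0.00584). AKR1B10, a reductase of retinaldehyde, fell to 1.02 ± 0.295 CPM in SPNS2, against 3.83 ± 0.325 CPM in NC (adjusted p = 0.0208), a call lost without NC replicate 1, NC replicate 2 or SPNS2 replicate 1 (adjusted p from 0.0608 to 0.0862). AKR1C3 and AKR1B10 have close paralogs, between which reads could be divided. RDH10, the main retinol dehydrogenase of the embryo, averaged 17.4 ± 0.948 CPM in SPNS2 and 19.2 ± 2.66 CPM in NC (adjusted p = 0.537), and RDH11 averaged 157 ± 15.5 CPM in SPNS2 and 156 ± 10.8 CPM in NC (adjusted p = 0.966).

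Of the other aldehyde dehydrogenases, 12 of 16 were tested, and the median log2 fold change was -0.23. Of those 12, 2 were called higher and 3 lower (41.7%, beside 23.4% of all tested genes). ALDH3A1, which oxidises aromatic and lipid-derived aldehydes and is abundant in cornea, was 10.7-fold lower, at 5.43 ± 0.374 CPM in SPNS2 and 58.4 ± 1.96 CPM in NC (edgeR adjusted p = 0.000929). ALDH3A2, the fatty aldehyde dehydrogenase that also acts on the aldehyde released when sphingosine 1-phosphate is broken down, fell to 56.6 ± 6.62 CPM in SPNS2, against 149 ± 14.6 CPM in NC (adjusted p = 0.00475). ALDH1L2, a mitochondrial enzyme of folate metabolism, fell to 15.7 ± 0.694 CPM in SPNS2, against 46.4 ± 3.20 CPM in NC (adjusted p = 0.00310). ALDH7A1, an enzyme of lysine breakdown, rose to 77.5 ± 0.974 CPM in SPNS2, against 35.3 ± 1.05 CPM in NC (adjusted p = 0.00281). ALDH1B1, a mitochondrial acetaldehyde dehydrogenase, rose to 39.0 ± 0.931 CPM in SPNS2, against 22.6 ± 1.27 CPM in NC (adjusted p = 0.0111), and leaving out NC replicate 1 or SPNS2 replicate 2 ended its call (adjusted p = 0.0538 or 0.0504). ALDH2, the main mitochondrial acetaldehyde dehydrogenase of most tissues, had 2 and 2 counts in the SPNS2 libraries and 2 and 0 in the NC libraries, too few to test.

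Retinoid uptake, binding and storage could be read in part only: 5 of 17 genes were tested and 7 had no counts in any library. Of the 5, 2 were called higher and 1 lower (60%, beside 23.4% of all tested genes). Their median log2 fold change was 0.35. LRAT, which stores retinol as an ester and lies on chromosome 4 as the dehydrogenase cluster does, fell to 0.652 ± 0.0952 CPM in SPNS2, against 3.24 ± 0.298 CPM in NC (edgeR adjusted p = 0.0115). CES1, a carboxylesterase that can cleave retinyl esters, had 53 and 89 counts in the SPNS2 libraries and 2 and 0 in the NC libraries, a ratio of SPNS2 to NC of 72.7 (counting interval 19.8 to 606.3, edgeR adjusted p = 0.0164). LPL, a lipoprotein lipase, rose to 8.05 ± 1.16 CPM in SPNS2, against 0.680 ± 0.626 CPM in NC (adjusted p = 0.0312). LRAT lost its call when NC replicate 2 was left out (adjusted p = 0.0589), CES1 without SPNS2 replicate 2 (adjusted p = 0.0708), and LPL when either SPNS2 library was left out (adjusted p = 0.0932 and 0.0801). The log2 fold change of LPL was 3.56, and it was 5.06 without NC replicate 1 and 2.83 without NC replicate 2. That of CES1 was 9.16 without NC replicate 1, where NC has no counts and the value is no bound, and 5.05 without NC replicate 2. STRA6, the retinol receptor, had 0 and 2 counts in SPNS2 and 0 and 4 in NC.

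Retinoic acid is broken down by CYP26 enzymes and read by the RAR and RXR receptors. CYP26B1, the 1 tested gene of 6 in the breakdown list, had 191 and 214 counts in the SPNS2 libraries and 675 and 725 in the NC libraries. It fell to 6.31 ± 0.148 CPM in SPNS2, against 21.3 ± 0.346 CPM in NC, which is -1.75 on the log2 scale (SE 0.12), with an edgeR adjusted p of 0.00326. The other 5 genes of that list, CYP26A1 among them, had no counts in any library. Of 12 tested receptors and cofactors, 3 were called higher and 2 lower (41.7%, beside 23.4% of all tested genes). Their median log2 fold change was 0.07. RARB, a receptor that is itself a classic retinoic acid target, moved the other way: it had 209 and 266 counts in the SPNS2 libraries and 8 and 24 in the NC libraries. It rose by 3.92 on the log2 scale (SE 0.51, adjusted p = 0.0121). The rise was 4.86 without NC replicate 2, the NC library with 24 counts, and 3.36 without NC replicate 1. NRIP1, a receptor corepressor, rose to 75.4 ± 2.37 CPM in SPNS2, against 32.5 ± 2.36 CPM in NC (adjusted p = 0.00346). RARG fell to 76.2 ± 0.493 CPM in SPNS2, against 110 ± 1.90 CPM in NC (adjusted p = 0.00891), and the coactivator NCOA1 fell to 25.6 ± 1.76 CPM in SPNS2, against 44.5 ± 1.78 CPM in NC (adjusted p = 0.0115). The coactivator NCOA3 rose to 171 ± 1.12 CPM in SPNS2, against 136 ± 3.23 CPM in NC (adjusted p = 0.0223). The calls of RARG (adjusted p = 0.0502) and NCOA1 (adjusted p = 0.0561) were lost without NC replicate 1, and that of NCOA3 was lost with any 1 library left out (adjusted p from 0.0699 to 0.106). RARA averaged 36.1 ± 0.678 CPM in SPNS2 and 33.8 ± 0.643 CPM in NC (adjusted p = 0.487).

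Genes known to respond to retinoic acid did not move one way. Of 22, 13 were tested, with a median log2 fold change of -0.60, also with CDX1 at its bound. In all 53.8% were called, beside 23.4% of all tested genes: 2 higher (RARB and NRIP1) and 5 lower. Besides CYP26B1 and LRAT, these were TGM2, the tissue transglutaminase, at 18.1 ± 3.77 CPM in SPNS2 and 56.6 ± 2.85 CPM in NC (edgeR adjusted p = 0.00727), and GPRC5A, an orphan receptor induced by retinoic acid, at 18.8 ± 1.11 CPM in SPNS2 and 45.1 ± 3.91 CPM in NC (adjusted p = 0.00535). CDX1, a homeobox factor, had no counts in the SPNS2 libraries and 12 and 12 in the NC libraries. It was at least 7.81-fold lower (edgeR adjusted p = 0.0460). That call was lost without the filter on low counts, with a block on the replicate number, and when either SPNS2 library was left out. The fits without an NC library gave no value for CDX1. DHRS3, a retinaldehyde reductase that retinoic acid induces in many cells, averaged 0.425 ± 0.417 CPM in SPNS2 and 0.649 ± 0.301 CPM in NC (adjusted p = 0.680). CRABP2, which carries retinoic acid to its receptors, averaged 5.88 ± 1.14 CPM in SPNS2 and 5.35 ± 2.44 CPM in NC (adjusted p = 0.831).

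**Figure D3:**
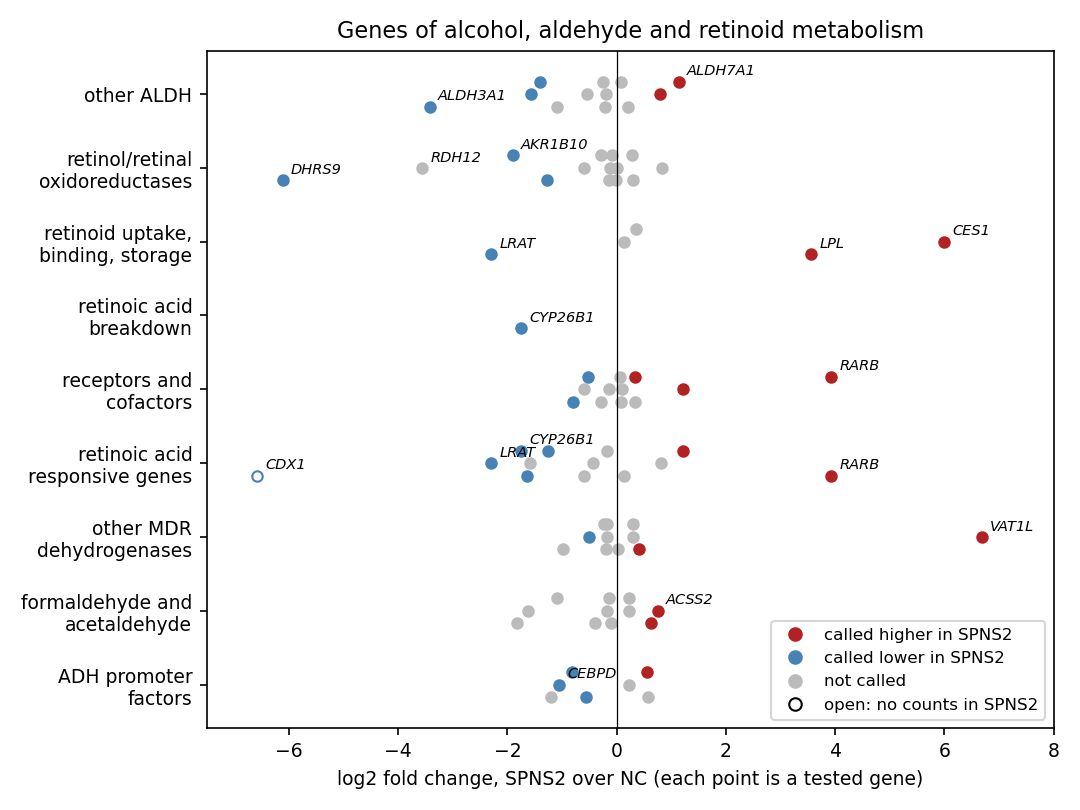
Log2 fold change of SPNS2 over NC for the tested genes of 9 lists of alcohol, aldehyde and retinoid metabolism, a row per list and a point per gene, coloured by the edgeR call; open points had no counts in SPNS2. Each row but the breakdown list holds genes near 0, and among receptors and responsive genes RARB is at 3.92 while CYP26B1 is at -1.75.

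The other 3 lists touch the dehydrogenases from the side of structure, substrate and transcription. The first list held medium-chain dehydrogenases, the wider structural family of the alcohol dehydrogenases, and also ADHFE1, which is outside that family. Of the 11 tested genes of that list, 2 were called higher and 1 lower (27.3%, beside 23.4% of all tested genes). Their median log2 fold change was -0.18. VAT1L, a family member of unknown substrate, rose by 6.69 on the log2 scale (SE 0.22, edgeR adjusted p = 0.000929), with 3459 and 3609 counts in the SPNS2 libraries and 42 and 28 in the NC libraries. Its relative VAT1 rose to 418 ± 8.20 CPM in SPNS2, against 316 ± 5.71 CPM in NC (adjusted p = 0.0107), and PTGR1, a prostaglandin reductase, fell to 43.1 ± 2.67 CPM in SPNS2, against 61.1 ± 0.404 CPM in NC (adjusted p = 0.0206). The call of VAT1 was lost when either NC library was left out (adjusted p = 0.0580 and 0.0520), and that of PTGR1 with any 1 library left out (adjusted p from 0.0547 to 0.0830). In the list on formaldehyde and acetaldehyde, 2 of 11 tested genes were called, both higher (18.2%, beside 23.4% of all tested genes). The median was -0.14. FANCD2, of the repair of DNA crosslinks, rose to 96.6 ± 4.58 CPM in SPNS2, against 62.4 ± 3.58 CPM in NC (adjusted p = 0.0113), and ACSS2, which activates acetate, rose to 51.4 ± 3.67 CPM in SPNS2, against 30.5 ± 0.957 CPM in NC (adjusted p = 0.0116). The FANCD2 call ended when NC replicate 2 or SPNS2 replicate 2 was left out (adjusted p = 0.0538 or 0.0506), and the ACSS2 call when NC replicate 1 was (adjusted p = 0.0569). ESD, the esterase that acts after ADH5 in formaldehyde clearance, averaged 84.4 ± 0.554 CPM in SPNS2 and 72.3 ± 5.36 CPM in NC (adjusted p = 0.118).

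Of 10 factors known to act on alcohol dehydrogenase promoters, 7 were tested, with a median log2 fold change of -0.57. Of the 7, 1 was called higher and 3 lower (57.1%, beside 23.4% of all tested genes). USF1, which binds E-boxes, rose to 34.8 ± 1.87 CPM in SPNS2, against 23.7 ± 2.22 CPM in NC (edgeR adjusted p = 0.0365). CEBPD fell to 4.61 ± 0.549 CPM in SPNS2, against 9.61 ± 0.661 CPM in NC (adjusted p = 0.0227), DBP fell to 5.36 ± 0.180 CPM in SPNS2, against 9.40 ± 1.36 CPM in NC (adjusted p = 0.0427), and TEF fell to 11.3 ± 0.150 CPM in SPNS2, against 16.8 ± 1.68 CPM in NC (adjusted p = 0.0492). Each of these 4 calls was lost with any 1 library left out (adjusted p from 0.0561 to 0.192). CEBPB averaged 132 ± 23.0 CPM in SPNS2 and 88.8 ± 26.0 CPM in NC (adjusted p = 0.167).

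Most markers of the tissues best known for these enzymes were near 0 in both groups. Of 12 hepatocyte markers 11 were under 1 CPM in every library, and ALB, APOA2, CYP3A4 and FGA had no counts. The summed level of the 12 was 0.390 and 0.360 CPM in the SPNS2 libraries and 6.64 and 7.19 CPM in the NC libraries. Most of the NC sum was FGG, a fibrinogen chain with 0 and 0 counts in the SPNS2 libraries and 196 and 195 in the NC libraries. Of 10 markers of stomach and oesophagus epithelium, 9 were under 1 CPM in every library, and KRT4 and KRT13 had no counts. The sum was 0.812 and 1.32 CPM in SPNS2 and 3.43 and 3.15 CPM in NC. Most of the NC sum was KRT14, with 10 and 3 counts in the SPNS2 libraries and 90 and 84 in the NC libraries. The edgeR test called KRT14 lower (adjusted p = 0.0214). For 10 adipocyte markers the sum was 10.0 and 7.67 CPM in SPNS2 and 3.24 and 2.91 CPM in NC. ADIPOQ and LEP had no counts, and LPL gave most of the sum in SPNS2. These markers went both ways: of 4 tested, edgeR called LPL higher and PLIN1 lower. PLIN1 had 13 counts over the SPNS2 libraries and 59 over the NC libraries. PPARG, which was not called, had 9 and 49, and FABP4 was not called either. The 10 fibroblast markers summed to 4843 and 4636 CPM in SPNS2 and 6599 and 6347 CPM in NC, and they went both ways, with 2 of 10 called higher (COL1A1 and PDGFRB) and 4 lower by edgeR. The lower ones were DCN, at 18.6 ± 3.99 CPM in SPNS2 and 609 ± 131 CPM in NC, LUM, COL3A1 and PDGFRA, which were 32.8-fold, 10.6-fold, 9.20-fold and 2.79-fold lower in that order. The part of these markers in the results above was not tested.

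For the members with a mean of at least 5 CPM, the tested genes with the most similar levels over the 4 libraries were found by Euclidean distance on log2(CPM + 0.5). Nearest to ADH1B were ACKR3, a scavenging receptor of CXCL12, at a distance of 0.393, SCARA5, a ferritin receptor, at 0.450, and EDNRB, an endothelin receptor, at 0.772. ACKR3 had 2 and 8 counts in the SPNS2 libraries and 554 and 630 in the NC libraries. Nearest to ADH7 were ZNF677 at 0.200, ZNF423 at 0.334 and EYA2 at 0.401, none of them on chromosome 4. Nearest to ADH5 were HNRNPH3 at 0.0792, UBE2D3 at 0.123, which lies on chromosome 4 too, and USP14 at 0.129, and nearest to ALDH1A3 were C2orf76 at 0.105, SERPINB7 at 0.145 and SLC2A8 at 0.147.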

How the data were processed

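RNA was sequenced from 2 SPNS2 and 2 NC libraries of U118-MG cells. The deposited values are raw counts per gene, whole numbers the authors did not normalize. The submitters' processing notes list, with no settings, the build hg38 and the tools featureCounts 0.3, HISAT2 2.2.1 and Trim Galore 0.6.9. A further row of annotation text (1 row) was left out. Members and lists were chosen with earlier results of these data known.

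Genes were filtered with filterByExpr (minimum count 10, minimum total 15), scaled by TMM, and compared (SPNS2 over NC) with the two-sided quasi-likelihood test of edgeR 4.0.16 in R 4.3.3, with no covariate. All adjusted p-values come from this test, by Benjamini-Hochberg over the 17853 genes. Values are mean ± SD, n = 2. A fold against no counts uses a floor of 3 counts over the group. Exact 95% intervals and floors cover counting error only. Gene positions and transcripts came from GENCODE 29 (GRCh38), promoters from RefSeq (GRCh38.p14), and alignments from Biopython 1.88. The 4q arm was taken to start at 50 Mb, an approximate centromere. Named genes were all members, SPNS2, up to 5 called genes per list with the smallest p, genes a list turns on, called neighbours and the nearest tested gene on each side, and the 3 most similar genes per member. FGG and other single markers, METAP1, ENSG00000246090 and the remaining uncalled list genes were named after their values were seen. Alternatives were RLE factors, library totals, no filter, a mean of at least 1 CPM, DESeq2 1.42.0, a replicate block, each library left out, arm medians removed, and summed class I copies.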

Additional observations from a re-analysis of the deposited data

How the results depend on the processing

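Over the alternatives, the log2 fold changes of the 5 tested members and of the 32 called list genes and neighbours kept their direction; those of the uncalled genes were not followed. With a replicate block, 1976 genes were called in place of 4171, 1039 higher and 937 lower. With 1 library left out, 1712 to 2144 were called, 950 to 1093 higher and 762 to 1051 lower. Across genes, the deviations of same-numbered libraries of SPNS2 and NC had a correlation of -0.0778. Whether such libraries share more than a number is not given in the sources used here, and 1 correlation over all genes cannot decide it. Of the members, 2 were called lower with the block and 2 to 3 with a library left out, in place of 4. Over all lists, 11 genes were called lower with the block, and with a library left out 6 to 9 higher and 9 to 13 lower. Of the chromosome 4 neighbours, 5 were called lower by edgeR with library totals, 1 without the filter, 0 to 1 with a library left out and 0 with the block, where 6 of 14 had an unadjusted p under 0.05, against 9 of 14 without it, and DESeq2 called 3. Of those 32 genes, 12 were called under every alternative that tested them. The causes were not tested. Taking off the arm median moved ADH1B to -7.66 and ALDH1A3 to 0.51 on the log2 scale. ADH5 moved to -0.01, which is smaller than its SE of 0.06, so its direction is not settled under that alternative. A gene with 0 to 5 counts in a group, such as ADH1B or ALDH1A2 in SPNS2, has a fold change that is known at best within its counting interval. That interval leaves out any other spread between libraries.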

Other observations

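In SPNS2 replicate 1, ADH1B, ADH1C and ALDH1A2 had no counts, while SPNS2 replicate 2 had 5, 4 and 5 counts. After this was seen, all genes that averaged 5 CPM or more in NC and had at most 10 counts over the SPNS2 libraries were collected. Of these 20 genes, 6 had counts in SPNS2 replicate 2 and none in replicate 1, 4 had counts in replicate 1 and none in replicate 2, 6 had none in either and 4 had counts in both. Their summed counts were 27 in SPNS2 replicate 1 and 42 in SPNS2 replicate 2. For the 19 genes with at least 5 CPM in SPNS2 and at most 10 counts over NC, NC replicate 1 alone lacked counts for 1 gene and NC replicate 2 alone for 3, and the sums were 36 and 45.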
